A study of Homo sapiens with 8 samples.

Results

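The lysosome, V-ATPase and autophagy genes described here are 37 listed genes, of 18404 genes measured, and all 37 were found. They were taken by name with no filter on their values, but from a list chosen with earlier results of these data known. The list holds 10 subunits of the V-ATPase, 6 lysosomal membrane and transport proteins and 12 cathepsins and other lysosomal enzymes or their activators. The rest are 5 autophagy proteins and 4 proteins of nutrient sensing at the lysosome. Each gene is represented by the probe set that carries exactly 1 gene symbol and has the highest mean over all arrays. Each of the 37 genes had only 1 such probe set.

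COLO829 cells, a long-established line from a human melanoma with the activating BRAF mutation V600E, were profiled for messenger RNA on 8 arrays. The cells were infected with a pGIPZ vector that carries a hairpin against MITF or a scrambled control hairpin, selected with puromycin for 2 days, and then kept for 24 h in 1 µM PLX4032 (vemurafenib, a BRAF inhibitor) or in DMSO alone. The 4 groups of 2 arrays, A and B, were scrambled DMSO, scrambled PLX4032, knockdown DMSO and knockdown PLX4032. All groups share the BRAF mutation, the infection and the selection, the labels name a single hairpin against MITF, and nothing says that A and B were separate cultures, so p-values reflect no more than the spread between arrays, which may be technical. Lower RNA per cell and fewer expressing cells cannot be told apart in such bulk samples.

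The lysosome is the acidic organelle in which cells break down proteins, lipids and glycans. The V-ATPase pumps protons into it, soluble hydrolases such as the cathepsins do the breakdown, and autophagy brings cytoplasm to it in double-membraned vesicles. Many of these genes share promoter elements of the E-box type, called CLEAR elements, that the related factors TFEB, TFE3 and MITF can bind. On the lysosomal surface the Rag GTPases recruit the kinase complex mTORC1 when amino acids are plentiful, and folliculin with its FNIP partners acts on RagC and RagD there. In pigment cells the lysosome is a close relative of the melanosome, and MITF is the master regulator of that lineage.

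The promoters of some members are shown because they hold the core of this element. Of the 37 genes, 24 matched an entry of the RefSeq promoter table (GRCh38.p14), which gives 250 bases before and 50 after 1 start site per gene. The letters CACGTG, the core of the element, which read alike on both strands, occurred in 9 of the 24 windows (37.5%), against 1264 of 14230 measured genes with an entry (8.88%). The longer form TCACGTGA, which contains the shorter one, occurred in 5 of 24 (20.8%), against 1.48% of the 14230. The related form TCATGTG, searched on both strands, occurred in 3 of 24 (12.5%), against 2.19%. Since many genes of this kind are known to share the element, these shares are no separate test of the list. A match is a run of letters and not a site shown to be bound.

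The promoters that follow are those of 5 members that hold CACGTG, one or more from each role except autophagy, where none of the 4 windows examined held it. Those of ATP6V0D1 and GAA follow from the rule for named genes, and the others were picked after their values were seen. They lie at chr16:67481108-67481407 on the minus strand (ATP6V0D1), chr13:113296989-113297288 on the plus strand (LAMP1), chr19:7522374-7522673 on the plus strand (MCOLN1), chr17:80101331-80101630 on the plus strand (GAA) and chr5:131796968-131797267 on the minus strand (FNIP1), written 5′ to 3′ along the gene, with CACGTG and its flanks where they complete TCACGTGA in capitals.
ATP6V0D1: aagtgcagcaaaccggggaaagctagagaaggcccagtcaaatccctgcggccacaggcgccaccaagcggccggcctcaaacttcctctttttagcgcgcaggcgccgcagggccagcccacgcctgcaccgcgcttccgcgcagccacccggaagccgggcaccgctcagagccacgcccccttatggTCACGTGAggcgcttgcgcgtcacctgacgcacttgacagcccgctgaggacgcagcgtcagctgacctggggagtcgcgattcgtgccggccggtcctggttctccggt
LAMP1: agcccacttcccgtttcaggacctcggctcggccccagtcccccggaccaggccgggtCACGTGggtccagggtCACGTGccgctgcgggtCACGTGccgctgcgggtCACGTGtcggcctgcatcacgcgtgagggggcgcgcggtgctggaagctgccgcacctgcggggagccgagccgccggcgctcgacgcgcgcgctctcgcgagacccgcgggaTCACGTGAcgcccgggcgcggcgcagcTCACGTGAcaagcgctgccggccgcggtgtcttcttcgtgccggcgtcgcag
MCOLN1: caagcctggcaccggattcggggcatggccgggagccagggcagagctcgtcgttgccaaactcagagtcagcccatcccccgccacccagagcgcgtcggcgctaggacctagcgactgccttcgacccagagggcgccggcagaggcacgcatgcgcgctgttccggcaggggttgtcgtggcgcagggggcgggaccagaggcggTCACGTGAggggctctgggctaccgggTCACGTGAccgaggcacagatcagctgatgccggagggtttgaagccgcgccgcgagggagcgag
GAA: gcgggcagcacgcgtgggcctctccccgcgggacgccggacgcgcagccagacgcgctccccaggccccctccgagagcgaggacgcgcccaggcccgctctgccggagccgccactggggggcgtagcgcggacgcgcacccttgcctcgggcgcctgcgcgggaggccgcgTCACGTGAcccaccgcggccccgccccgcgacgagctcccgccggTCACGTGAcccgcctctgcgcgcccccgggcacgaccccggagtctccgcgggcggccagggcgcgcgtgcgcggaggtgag
FNIP1: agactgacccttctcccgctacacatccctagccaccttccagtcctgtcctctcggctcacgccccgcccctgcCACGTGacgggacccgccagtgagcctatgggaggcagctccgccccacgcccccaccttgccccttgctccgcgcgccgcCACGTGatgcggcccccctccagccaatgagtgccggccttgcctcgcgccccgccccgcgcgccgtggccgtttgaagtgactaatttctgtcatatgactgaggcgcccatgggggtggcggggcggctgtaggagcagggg
ATP6V0D1 holds TCACGTGA once, 60 bases before the start site. LAMP1 holds CACGTG 6 times, MCOLN1 and GAA hold TCACGTGA 2 times each, and FNIP1 holds the core 2 times without the flanks. CD63, CTSA, CTSD and NEU1 held the core as well. ATP6V0A1, NPC1, CTSL, GABARAPL1, WIPI1, FLCN and FNIP2, which appear below among the genes that changed most, held none of the 3 forms in these windows. By the calls defined below, 7 of 17 members that rose with PLX4032 in scrambled cells held the core, and 2 of 6 without a call. On knockdown in DMSO it was held by 1 of 6 that rose, 0 of 3 that fell and 8 of 15 without a call. A link between the core and the response was not tested. RRAGD, ARSA and HEXA, which changed as well, had no entry and could not be searched.

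Values are log2 intensities, on which a difference of 1 is a doubling. Changes are given ± SE of the limma model, in which the 8 arrays were fitted together (n = 2 in each group), and a gene is said to have risen or fallen where the adjusted p was below 0.05 (limma, Benjamini-Hochberg over 18404 genes). Groups of 2 arrays that do not overlap were also seen in genes without a call. Such gaps are given below as description and are no further test. MITF read 10.44 and 10.46 in scrambled DMSO cells and was at 9.57 and 9.47 after knockdown in DMSO. It read 10.88 and 10.80 in scrambled PLX4032 cells and 10.07 and 10.08 in knockdown PLX4032 cells. The hairpin thus lowered it 1.91-fold in DMSO and 1.7-fold under the inhibitor (adjusted p = 8.28e-06 and 3.02e-05). Of 7 melanocytic markers PMEL (11.70 to 12.85 over the 8 arrays), TYR (10.88 to 11.73), SOX10 and S100B were bright throughout, whereas MLANA read 4.32 and 4.47 and TYRP1 5.54 and 5.63 in knockdown DMSO cells, below the median gene there. Both fell on knockdown in DMSO (log2 change -1.83 for MLANA and -2.55 for TYRP1), as did PMEL (-0.80) and MITF itself. S100B rose there (0.56), and TYR (0.23) and SOX10 (0.13) gave no call. The mean of the 7 ran from 9.28 in knockdown DMSO cells to 11.08 in scrambled PLX4032 cells. Of 7 leukocyte markers 1 read above the median gene, CD68, which encodes a lysosomal membrane protein itself, whereas PTPRC read 3.20 to 3.47. Leukocyte markers averaged between 5.03 and 5.28 over all arrays, fibroblast markers between 5.62 and 5.88 with only LUM above the median gene in each group, and keratinocyte markers between 4.64 and 4.73. The part of other cells in the results was not tested further.

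**Figure D1:**
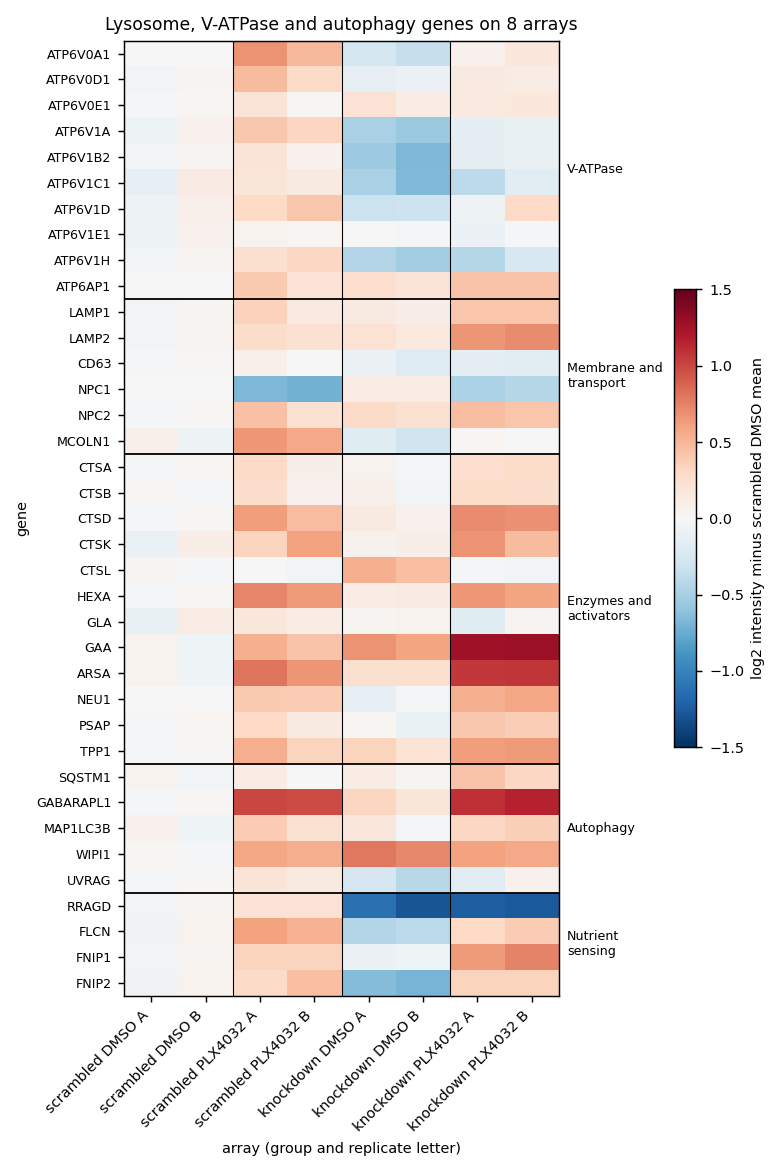
Log2 intensity of each of the 37 genes (rows, grouped by role) on each of the 8 arrays (columns), as the difference from the mean of the 2 scrambled DMSO arrays; red is higher and blue lower. GABARAPL1, GAA and ARSA are red in all PLX4032 arrays, and RRAGD is blue in all knockdown arrays (8.73 to 8.89 against 9.97 and 10.06 in scrambled DMSO cells).

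BRAF inhibition moved the set mainly upward, and it did so with either hairpin. In scrambled cells 23 of 37 genes rose and 1 fell, where 17.3% of all genes rose and 16.8% fell. The median change of the 37 was 0.31, against 0.05 over all genes. In knockdown cells 21 rose and 2 fell, where 18.6% of all genes rose and 15.1% fell, with a median of 0.30 against 0.04. The same shares of all genes apply to the counts per role with PLX4032 that follow. These 2 comparisons share no array. The 17 genes that rose in both make up 73.9% of the first list and 81% of the second, while for all genes the corresponding shares were 59.9% and 56%. No member called in both moved in opposite directions, but opposite calls were rare among all genes too. Of the 3193 genes that rose in scrambled cells 70 fell in knockdown cells, and of the 3085 that fell 135 rose.

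The count in scrambled cells leaned on single arrays. It was 14 without scrambled PLX4032 replicate A and 15 without scrambled DMSO replicate A, and 12 genes rose in every one of the 8 fits that leave out an array. Scrambled PLX4032 replicate A read higher than replicate B for 32 of the 37 genes (median difference 0.088, against 0.029 over all genes and 0.096 over the 1775 genes with a mean above 10), and the part of this offset in the rises was not tested beyond those fits. In knockdown cells 15 of 21 rose in all 8 fits.

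**Figure D2:**
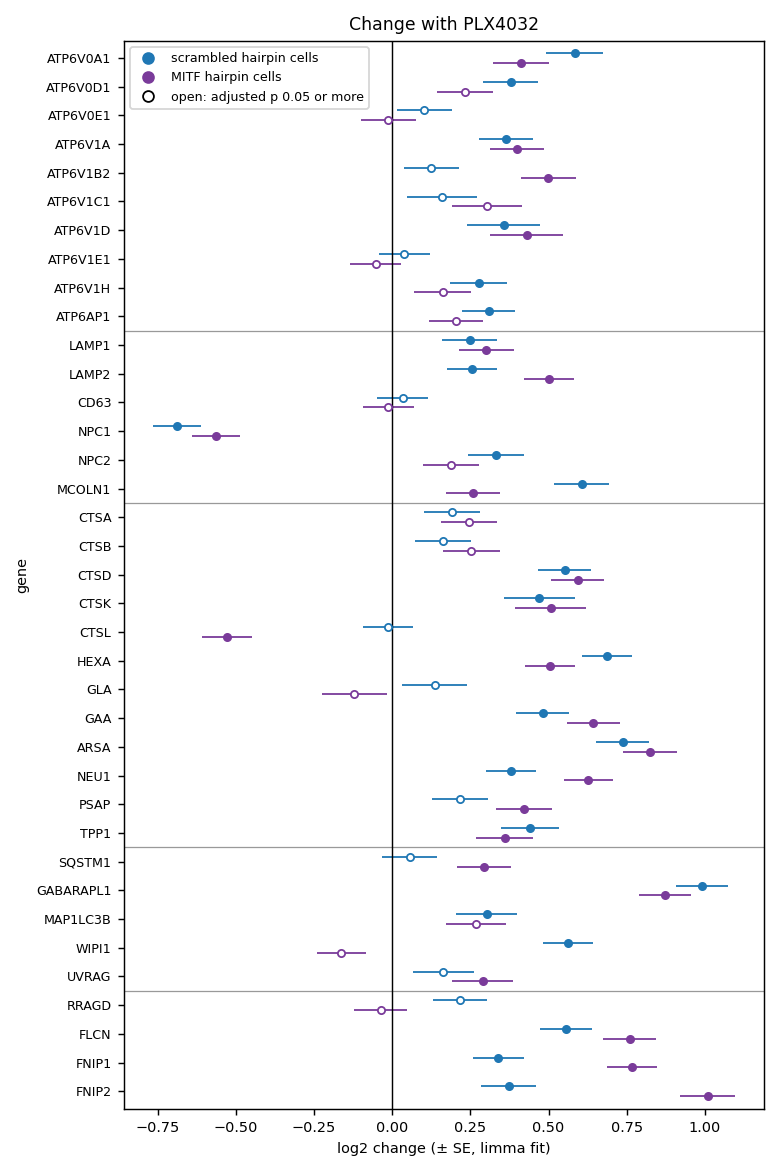
Log2 change with PLX4032 (x axis, ± SE) for each of the 37 genes, in scrambled cells (blue) and in knockdown cells (purple); filled points have an adjusted p below 0.05. Most points lie to the right of 0, NPC1 lies to the left in both, and WIPI1, CTSL, FNIP1 and FNIP2 are the genes whose change differed between hairpins past the threshold.

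Among autophagy genes 3 of 5 rose in scrambled cells (GABARAPL1, MAP1LC3B and WIPI1) and 3 in knockdown cells (GABARAPL1, SQSTM1 and UVRAG). GABARAPL1 had the largest rise of the 37 in scrambled cells. This ubiquitin-like protein of the LC3 family is coupled to the autophagosome membrane. Its transcript read 8.94 and 8.98 in scrambled DMSO cells and was at 9.96 and 9.94 in scrambled PLX4032 cells. The inhibitor thus took both arrays past both controls, by 0.99 ± 0.083 (1.99-fold, limma adjusted p = 5.21e-06). In knockdown cells it read 9.28 and 9.14 in DMSO and 10.05 and 10.11 in PLX4032, a rise of 0.87 ± 0.083 (1.83-fold), again with no overlap. The difference between these rises was -0.12 (95% interval -0.38 to 0.14). MAP1LC3B, which encodes LC3B itself, rose by 0.30 ± 0.097 with the scrambled hairpin (adjusted p = 0.0325) and gave 0.27 ± 0.097 with the MITF hairpin (adjusted p = 0.0543). Its probe set and that of CTSK, a collagen-degrading cathepsin, were the 2 of 37 that did not read above the median gene in every group. SQSTM1, the cargo receptor p62, read 11.38 and 11.29 against 11.44 and 11.34 in scrambled cells, which overlap (0.06 ± 0.087, adjusted p = 0.663), and rose in knockdown cells (0.29 ± 0.087, adjusted p = 0.0222). UVRAG, a partner of the autophagy lipid kinase, gave 0.16 ± 0.097 with the scrambled hairpin (adjusted p = 0.227) and rose by 0.29 ± 0.097 with the other (adjusted p = 0.0395). Calls were lost in 2 of the 8 fits for MAP1LC3B, in 3 for SQSTM1 and in 5 for UVRAG.

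Lysosomal enzymes rose with the inhibitor in 7 of 12 cases in scrambled cells and in 8 of 12 in knockdown cells. ARSA, arylsulfatase A, which removes sulfate from sulfatides, read 7.79 and 7.67 in scrambled DMSO cells and 8.54 and 8.40 in scrambled PLX4032 cells, a rise of 0.74 ± 0.086 (1.67-fold, adjusted p = 6.05e-05). In knockdown cells it read 7.97 and 7.98, then 8.79 and 8.81, a rise of 0.82 ± 0.086 (1.77-fold). The groups were apart in both cases. HEXA, the alpha subunit of beta-hexosaminidase, read 9.63 and 9.69 in scrambled DMSO cells against 10.39 and 10.30 in scrambled PLX4032 cells (0.69 ± 0.080, 1.61-fold) and rose by 0.50 ± 0.080 in knockdown cells. The aspartic protease CTSD rose by 0.55 ± 0.086 and 0.59 ± 0.086, the sialidase NEU1 by 0.38 ± 0.080 and 0.63 ± 0.080, the tripeptidase TPP1 by 0.44 ± 0.092 and 0.36 ± 0.092, and CTSK by 0.47 ± 0.11 and 0.51 ± 0.11, in scrambled and knockdown cells respectively. GAA rose from 7.66 and 7.54 to 8.14 and 8.03 (0.48 ± 0.085) and from 8.28 and 8.20 to 8.88 and 8.89 (0.64 ± 0.085). PSAP, the precursor of the saposins that help degrade sphingolipids, rose past the threshold in knockdown cells alone (0.42 ± 0.089, and 0.22 ± 0.089 with adjusted p = 0.0866 in scrambled cells), but the difference between these values did not pass (0.21, interval -0.07 to 0.48). The call for CTSK in scrambled cells was lost in 2 of the 8 fits and that for TPP1 in knockdown cells in 1. CTSA (0.19 ± 0.089 and 0.25 ± 0.089), CTSB (0.16 ± 0.090 and 0.25 ± 0.090) and the galactosidase GLA (0.14 ± 0.10 and -0.12 ± 0.10) passed in neither.

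Among membrane and transport proteins, 4 of 6 rose and 1 fell in scrambled cells, and 3 rose and 1 fell in knockdown cells. NPC1, which exports cholesterol from the lysosome, was the 1 gene of the 37 that fell with either hairpin. It read 10.32 on both scrambled DMSO arrays and 9.65 and 9.61 with PLX4032, a fall of 1.61-fold (-0.69 ± 0.077, adjusted p = 4.58e-05), and in knockdown cells 10.43 on both arrays and then 9.84 and 9.89 (-0.56 ± 0.077). Its soluble partner NPC2, which hands cholesterol to NPC1, went from 11.40 and 11.43 to 11.85 and 11.64 in scrambled cells (0.33 ± 0.090, adjusted p = 0.0146). The change of NPC2 after knockdown was 0.19 ± 0.090 (adjusted p = 0.143). MCOLN1, the lysosomal calcium channel, read 9.67 and 9.52, then 10.24 and 10.16 in scrambled cells (0.61 ± 0.088, 1.52-fold). In knockdown cells it read 9.41 and 9.30, then 9.62 and 9.60 (0.26 ± 0.088, adjusted p = 0.0415). The difference was -0.35 ± 0.12 (adjusted p = 0.103) and did not pass. The membrane glycoproteins LAMP1 (0.25 ± 0.088 and 0.30 ± 0.088) and LAMP2 (0.26 ± 0.081 and 0.50 ± 0.081) rose in both, and the tetraspanin CD63 (0.03 ± 0.082 and -0.01 ± 0.082) in neither. LAMP1 in scrambled cells was barely past the threshold (adjusted p = 0.0495) and lost its call in 7 of the 8 fits. MCOLN1 in knockdown cells lost it in 6, LAMP1 there in 4, LAMP2 in scrambled cells in 3 and NPC2 in 2.

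Of the V-ATPase subunits 6 of 10 rose in scrambled cells and 4 in knockdown cells, and none fell, with medians of 0.29 and 0.27. ATP6V0A1, a membrane-sector subunit, read 10.35 and 10.37 in scrambled DMSO cells and 11.04 and 10.85 with PLX4032 (0.58 ± 0.090, 1.5-fold, adjusted p = 0.000444), and rose by 0.41 ± 0.090 in knockdown cells. ATP6V0D1, whose promoter is printed above, read 11.24 and 11.32, then 11.75 and 11.57 (0.38 ± 0.088). In knockdown cells it changed by 0.23 ± 0.088 (adjusted p = 0.0667). ATP6V1A, the catalytic subunit, rose by 0.36 ± 0.086 and 0.40 ± 0.086, and the rotor-stalk subunit ATP6V1D by 0.36 ± 0.12 and 0.43 ± 0.12. ATP6V1H (0.28 ± 0.091) and the accessory protein ATP6AP1 (0.31 ± 0.086) rose in scrambled cells, and their values in knockdown cells were 0.16 ± 0.091 and 0.20 ± 0.086. ATP6V1B2 rose in knockdown cells alone (0.50 ± 0.087, and 0.12 ± 0.087 in scrambled cells), and the difference of 0.37 ± 0.12 did not pass (adjusted p = 0.0794). ATP6V1C1 (0.16 ± 0.11 and 0.30 ± 0.11), ATP6V1E1 (0.04 ± 0.083 and -0.05 ± 0.083) and ATP6V0E1 (0.10 ± 0.088 and -0.01 ± 0.088) passed in neither. Calls in scrambled cells were lost in 6 of the 8 fits for ATP6V1H, in 5 for ATP6V1D, in 3 for ATP6AP1, in 2 for ATP6V1A and in 1 for ATP6V0D1, and that of ATP6V1D in knockdown cells in 3.

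On MITF knockdown in DMSO 6 of the 37 genes rose and 9 fell, where 14.4% of all genes rose and 18.8% fell, and the median of 0.02 equalled that of all genes (0.02). These counts lie near the background, so they are no result about the set. The falls lay in the V-ATPase and in nutrient sensing, and 8 of the 9 were in these roles. The rises lay among enzymes, autophagy proteins and NPC2. The count of rises was 3 without scrambled DMSO replicate B, without knockdown DMSO replicate A or without knockdown DMSO replicate B. CTSL, GAA and WIPI1 rose, and 7 of the 9 genes fell, in every fit that leaves out an array.

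**Figure D3:**
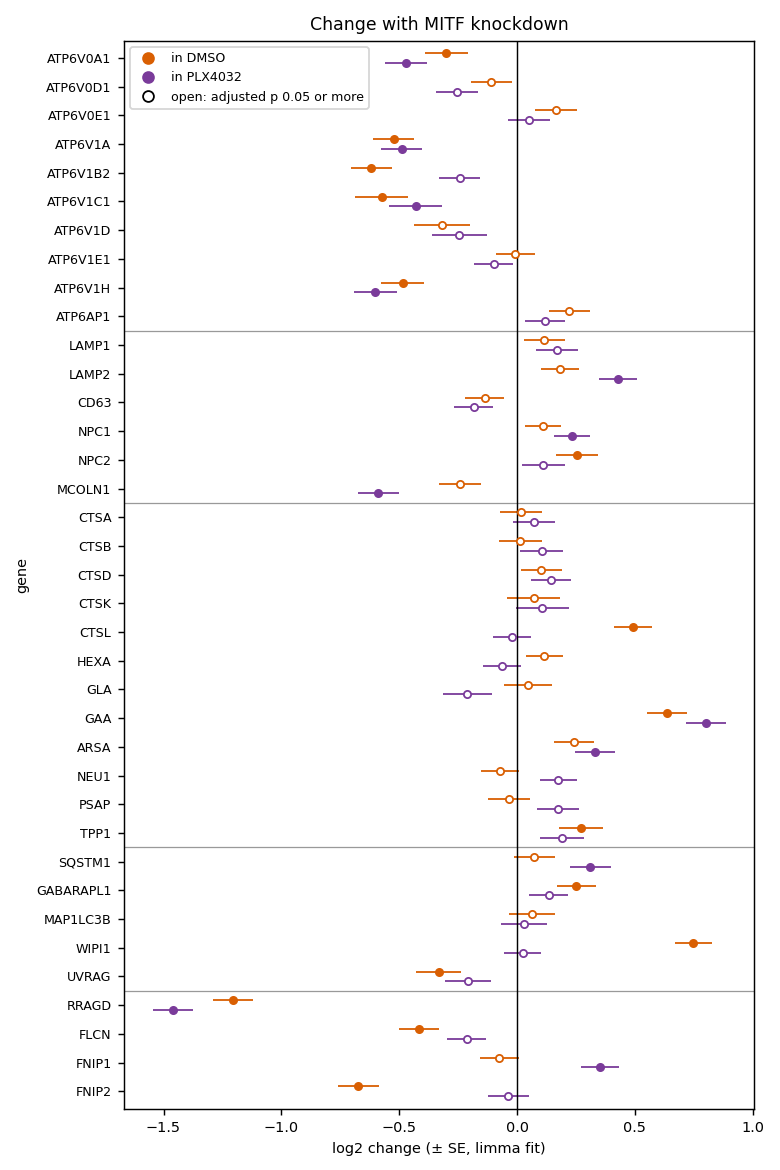
Log2 change with the MITF hairpin (x axis, ± SE) for each of the 37 genes, in DMSO (orange) and in PLX4032 (purple); filled points have an adjusted p below 0.05. RRAGD lies farthest to the left in both (-1.21 and -1.46) and GAA to the right of 0 in both (0.64 and 0.80), with WIPI1 farther right in DMSO (0.75), and 5 of the 10 V-ATPase subunits at the top are filled and left of 0 in DMSO.

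V-ATPase transcripts fell in 5 of 10 cases and rose in none, where 18.8% of all genes fell and 14.4% rose. Their median was -0.31, against 0.02 over all genes. Of 13 further subunits on the wider list below, 3 fell and none rose, which is near the share of all genes. ATP6V1B2, the ATP-binding partner of the catalytic subunit, read 12.01 and 12.09 in scrambled DMSO cells and, with the MITF hairpin, 11.50 and 11.37, a fall of 1.53-fold (-0.62 ± 0.087, adjusted p = 0.000295). ATP6V1C1, which links the sectors, read 9.55 and 9.80, then 9.19 and 9.01 (-0.57 ± 0.11, adjusted p = 0.00258). ATP6V1A read 10.42 and 10.56, then 10.00 and 9.93 (-0.52 ± 0.086, adjusted p = 0.000849). No knockdown array of these 3 genes reached a control array, which also held for ATP6V0D1, a gene without a call. ATP6V1H, a regulatory subunit, read 8.60 and 8.69, then 8.20 and 8.12 (-0.49 ± 0.091), and ATP6V0A1 fell by 0.30 ± 0.090 on the log2 scale (adjusted p = 0.0255), a call lost without any 1 of the 4 DMSO arrays (adjusted p = 0.0575 to 0.159). ATP6V1D (-0.32 ± 0.12, adjusted p = 0.0576), ATP6V0D1 (-0.11 ± 0.088), ATP6V1E1 (-0.01 ± 0.083), ATP6V0E1 (0.17 ± 0.088) and ATP6AP1 (0.22 ± 0.086, adjusted p = 0.0696) did not pass.

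Nutrient sensing genes held the largest fall. RRAGD encodes RagD, a Rag GTPase that presents substrates of the TFEB family to mTORC1. It read 9.97 and 10.06 in scrambled DMSO cells and, with the MITF hairpin, 8.89 and 8.73, a fall of 2.31-fold (-1.21 ± 0.086, adjusted p = 2.11e-06). FNIP2, a folliculin partner, read 7.93 and 8.04, then 7.34 and 7.29 (-0.67 ± 0.088, 1.59-fold), and folliculin, FLCN, read 8.57 and 8.68, then 8.19 and 8.22 (-0.42 ± 0.084, adjusted p = 0.00311). All knockdown arrays lay below the controls in these 3 genes. FNIP1, the other partner, read 9.12 and 9.20, then 9.07 and 9.10, a small gap that gave no call (-0.07 ± 0.081, adjusted p = 0.516).

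Of the 12 enzymes 3 rose and none fell, where 14.4% of all genes rose and 18.8% fell. Of the 5 autophagy genes 2 rose and 1, UVRAG, fell. On the wider list below, 16 of 37 other lysosomal genes rose and 8 fell, and 6 of 41 other autophagy genes rose and 5 fell. WIPI1, which binds the phosphoinositide of the forming autophagosome and acts in early melanosome formation, read 10.51 and 10.46 in scrambled DMSO cells and, with the MITF hairpin, 11.27 and 11.20 (0.75 ± 0.079, 1.68-fold, adjusted p = 3.55e-05). GAA, the acid glucosidase that degrades glycogen, read 7.66 and 7.54, then 8.28 and 8.20 (0.64 ± 0.085, 1.56-fold, adjusted p = 0.000193). The cysteine protease CTSL read 10.74 and 10.67, then 11.24 and 11.15 (0.49 ± 0.080, 1.41-fold). In these 3 genes both knockdown arrays lay above both controls. NPC2 read 11.40 and 11.43, then 11.70 and 11.64 (0.26 ± 0.090), and TPP1 (0.27 ± 0.092) and GABARAPL1 (0.25 ± 0.083) rose by as little, with adjusted p between 0.0385 and 0.0494 and calls lost in 4 of the 8 fits (TPP1) or 6 (NPC2, GABARAPL1). UVRAG fell (-0.33 ± 0.097, adjusted p = 0.0224, lost in 2 of the 8 fits). The remaining enzymes lay between -0.07 (NEU1) and 0.24 (ARSA, adjusted p = 0.0521). MCOLN1 read 9.67 and 9.52 against 9.41 and 9.30 (-0.24 ± 0.088, adjusted p = 0.0548).

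Under PLX4032 the same hairpin lowered 6 of the 37 genes and raised 6, where 15% of all genes fell and 13.5% rose, counts again near the background. This comparison uses other arrays than the one in DMSO, but the same fit and estimate of the spread. Of the falls, 5 were shared, 55.6% of the 9 in DMSO and 83.3% of the 6 here (51.7% and 64.7% for all genes), namely RRAGD, ATP6V0A1, ATP6V1A, ATP6V1C1 and ATP6V1H. RRAGD read 10.23 on both scrambled arrays and 8.78 and 8.76 on the knockdown arrays (-1.46 ± 0.086, 2.75-fold, adjusted p = 3.31e-07). ATP6V1H read 8.89 and 8.95, then 8.22 and 8.42 (-0.60 ± 0.091, 1.52-fold), and MCOLN1, the sixth, read 10.24 and 10.16, then 9.62 and 9.60 (-0.59 ± 0.088, 1.5-fold). Of the rises, only GAA was shared, 16.7% of each list of 6 (46.8% and 50.1% for all genes). It read 8.14 and 8.03, then 8.88 and 8.89 (0.80 ± 0.085, 1.74-fold). LAMP2 read 10.79 and 10.75, then 11.18 and 11.22 (0.43 ± 0.081), and FNIP1 (0.35 ± 0.081), ARSA (0.33 ± 0.086), SQSTM1 (0.31 ± 0.087) and NPC1 (0.23 ± 0.077) also rose. The call of NPC1 (adjusted p = 0.0434 with all arrays) was lost in each of the 8 fits, that of ARSA in 3, of SQSTM1 in 2 and of FNIP1 in 1, and the fall of ATP6V1C1 in 3 (adjusted p up to 0.111). The count of rises was 3 without scrambled PLX4032 replicate B, knockdown PLX4032 replicate A or knockdown PLX4032 replicate B.

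The response to the inhibitor differed between hairpins for 4 of the 37 genes, 2 with a more positive and 2 with a more negative value in knockdown cells, where 6.97% and 4.85% of all genes did so, which is near the members' share. FNIP2 rose from 7.93 and 8.04 to 8.27 and 8.44 in scrambled cells (0.37 ± 0.088) and from 7.34 and 7.29 to 8.32 on both arrays in knockdown cells (1.01 ± 0.088, 2.01-fold). The difference was 0.64 ± 0.12 (adjusted p = 0.00678), and under PLX4032 the hairpin groups overlapped. FNIP1 rose from 9.12 and 9.20 to 9.50 on both arrays, and from 9.07 and 9.10 to 9.80 and 9.91 in knockdown cells (0.34 ± 0.081 and 0.77 ± 0.081, difference 0.43 ± 0.12, adjusted p = 0.0346). The hairpin groups lay close in DMSO (-0.07) and apart under the inhibitor (0.35). FLCN rose in both, from 8.57 and 8.68 to 9.23 and 9.14 in scrambled cells (0.56 ± 0.084) and from 8.19 and 8.22 to 8.92 and 9.01 in the others (0.76 ± 0.084), with a difference of 0.20 (interval -0.06 to 0.47), and RRAGD in neither (0.22 ± 0.086 and -0.04 ± 0.086).

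WIPI1 and CTSL went the other way. WIPI1 rose to 11.06 and 11.03 with PLX4032 in scrambled cells (0.56 ± 0.079) and read 11.09 and 11.05 in knockdown cells that had stood at 11.27 and 11.20 without it (-0.16 ± 0.079, adjusted p = 0.148). The difference was -0.72 ± 0.11 (adjusted p = 0.00153). All 6 arrays with the hairpin, the inhibitor or both lay between 11.03 and 11.27, above the 10.46 and 10.51 of scrambled DMSO cells. CTSL read 10.71 and 10.66 with PLX4032 in scrambled cells, within reach of its DMSO values (-0.01 ± 0.080), and fell from 11.24 and 11.15 to 10.67 and 10.66 in knockdown cells (-0.53 ± 0.080, 1.44-fold). Its difference was -0.51 ± 0.11 (adjusted p = 0.0136). CTSL was thus high in 1 group of 4. Of these differences, those of FNIP2 and WIPI1 passed in all 8 fits that leave out an array. That of CTSL was lost without scrambled PLX4032 replicate A (adjusted p = 0.0543) or knockdown DMSO replicate A (0.0678). That of FNIP1 was lost in 6 fits, all except those without scrambled DMSO replicate A or knockdown PLX4032 replicate A (0.0876 to 0.118). The other 33 genes gave no call, which does not show that they respond alike: the SE of a difference was at least 0.109, the value for NPC1.

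**Figure D4:**
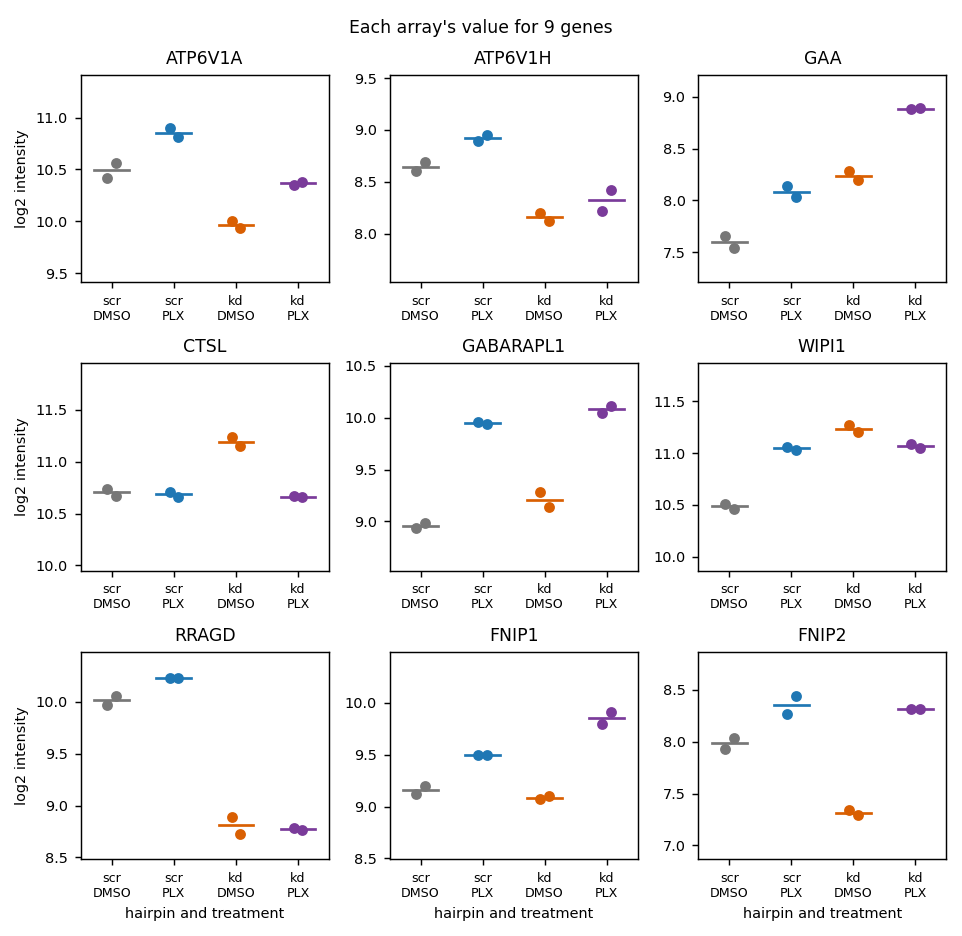
Log2 intensity (y axes, each spanning 2 units) of 9 genes on each array, by hairpin (scr, scrambled; kd, MITF hairpin) and treatment (DMSO or PLX4032, written PLX); points are arrays A and B and lines their mean. RRAGD is low in both knockdown groups, GABARAPL1 is high in both PLX4032 groups, GAA is highest with both, CTSL is high in knockdown DMSO cells only, and FNIP2 is low there.

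Cells with both perturbations ended above untreated scrambled cells for 21 genes and below for 3, where 27.1% of all genes rose and 21.5% fell. This comparison shares the scrambled DMSO arrays with those of the hairpin alone and the inhibitor alone, and the values for the members are therefore only set side by side. GAA read 8.88 and 8.89 against 7.66 and 7.54, 2.43-fold higher (1.28 ± 0.085, adjusted p = 3.66e-07), beside 0.64 for the hairpin alone and 0.48 for the inhibitor alone. GABARAPL1 (1.12 ± 0.083, 2.18-fold) and ARSA (1.07 ± 0.086, 2.09-fold) followed, and 10 of 12 enzymes rose. RRAGD (-1.24 ± 0.086), NPC1 (-0.45 ± 0.077) and ATP6V1H (-0.32 ± 0.091) stayed below. Calls were lost in 4 of the 8 fits that leave out an array for CTSA and CTSB (0.26 ± 0.089 and 0.27 ± 0.090), in 2 for ATP6V1H and MAP1LC3B, and in 1 for FNIP2. Of the V-ATPase subunits only ATP6AP1 rose (0.43 ± 0.086), and the median of the 10 was 0.03. ATP6V1A, with -0.52 for the hairpin and 0.36 for the inhibitor, read -0.13 ± 0.086 with both (adjusted p = 0.249).

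Over the 5 pairwise comparisons 33 of the 37 genes (89.2%) passed at least once, against 63.5% of all genes. ATP6V0E1, ATP6V1E1, CD63 and GLA passed in none. The members were bright, with a median percentile of level of 93.7 among all genes. How much brightness adds to this and the other shares set against all genes was not tested.

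Other genes of these pathways were taken from a wider list. All-gene shares to read their counts against are 14.4% up and 18.8% down for knockdown in DMSO, 17.3% and 16.8% for PLX4032 in scrambled cells, 18.6% and 15.1% for PLX4032 in knockdown cells and 13.5% and 15% for knockdown in PLX4032. Of 13 further V-ATPase subunits measured, 3 fell and none rose on knockdown in DMSO (ATP6V0E2, -0.30 ± 0.090, ATP6V0C, -0.30 ± 0.10, and ATP6V1G1, -0.29 ± 0.087), and 2 rose and 1 fell with PLX4032 in scrambled cells, none of which is far from those shares. With PLX4032 in knockdown cells 5 of these 13 rose and 1 fell. ATP6V1C2 (1.01 ± 0.12) and ATP6V0E2 (0.78 ± 0.090), isoforms of subunits among the members, were among those that rose, and their change differed between hairpins (1.05 ± 0.17 and 1.00 ± 0.13). ATP6V1C2 was dim, at 5.09 to 6.18 on the 8 arrays, below the median gene in every group. Of 37 other lysosomal enzymes, membrane proteins and sorting factors, 19 rose and 2 fell with PLX4032 in scrambled cells, and 25 rose and none fell in knockdown cells. The cathepsin CTSF (1.85 ± 0.089), acid sphingomyelinase SMPD1 (1.24 ± 0.098) and the cystine exporter CTNS (0.91 ± 0.088) led the first, and CTNS (1.22 ± 0.088) and the mannosidase MANBA (1.10 ± 0.093) the second. On knockdown in DMSO 16 rose and 8 fell, with CTSO (0.89 ± 0.16) and CTSF (0.85 ± 0.089) up and GNPTAB, which makes the mannose 6-phosphate tag of lysosomal enzymes, down (-0.72 ± 0.096).

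Of 41 other autophagy genes 12 rose and 1 fell with PLX4032 in scrambled cells, led by ATG14 (1.39 ± 0.090), the cargo receptor OPTN (1.29 ± 0.093) and the lipid transfer protein gene ATG2A (1.25 ± 0.088), and 14 rose and 3 fell in knockdown cells. On knockdown in DMSO 6 rose and 5 fell, counts near the shares of all genes (14.4% and 18.8%) or below. ATG2A had the largest difference between hairpins in this list (-1.12 ± 0.13, adjusted p = 0.000191). Of 20 other nutrient sensing genes 9 rose and 2 fell with PLX4032 in scrambled cells and 3 rose and 5 fell on knockdown in DMSO. RRAGC, which encodes RagC, went from 9.48 and 9.52 to 10.12 and 10.23 with PLX4032 in scrambled cells, and from 8.92 and 8.88 to 10.09 and 10.31 after knockdown. It fell with the hairpin in DMSO (-0.60 ± 0.093), rose with the inhibitor (0.67 ± 0.093 and 1.30 ± 0.093), and its rise differed between hairpins (0.62 ± 0.13, adjusted p = 0.0103), while its close relative RRAGD gave 0.22 and -0.04. Under PLX4032 the hairpin raised 3 and lowered 1 of the further V-ATPase subunits, raised 13 and lowered 6 of the other lysosomal genes, raised 2 and lowered 2 of the other autophagy genes, and lowered 2 of the other nutrient sensing genes. MANBA (1.23 ± 0.093) and ATP6V1C2 (0.90 ± 0.12) were up and ATG2A was down (-0.79 ± 0.088).

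Of the factors related to MITF, TFE3 rose on knockdown, by 0.38 ± 0.089 in DMSO and 0.67 ± 0.089 under PLX4032, from 8.77 and 8.92 in scrambled DMSO cells to 9.59 and 9.58 with both perturbations. TFEB rose with PLX4032 by 0.44 ± 0.12 and 0.43 ± 0.12. TFEC, at 3.14 to 3.55 on the 8 arrays, gave no call in any comparison.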

How the data were processed

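RNA from 8 samples was hybridised to 1 array each. The authors deposited log2 intensities per probe set made with RMA, per the submitters' processing notes. RMA equalizes the distributions of the arrays, which removes shifts common to most genes and compresses changes of dim and very bright probe sets. The RMA version, the build and the annotation of probe sets were not given in the sources used here. Without scanner files or detection calls, how far a probe set stands above background is unknown, and the number of arrays limits the precision.

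Of 32321 probe sets 19158 carried exactly 1 gene symbol (platform annotation updated through RefSeq), 1388 several and 11775 none, and per gene the probe set with the highest mean was kept, leaving 18404 genes with no filter. A mean per group was fitted across all genes over 8 arrays with limma 3.58.1 in R 4.3.3 (lmFit and eBayes, 4 residual and 6.73 prior degrees of freedom; two-sided, Benjamini-Hochberg over all genes within each of 6 contrasts, threshold 0.05). The code was tested on simulated data. Correlations between arrays of a group were 0.99734 to 0.99844. Replicate letters were checked for pairing by the correlation of deviations from group means, -0.094 to 0.329 over 6 pairs of groups. The 0.329 was that of scrambled DMSO with knockdown PLX4032, the groups compared for both perturbations, and the others were negative. The letters were not treated as pairs. With the letter as a block, the rises and falls of members with both perturbations stayed at 21 and 3.

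Members and lists were chosen with earlier results of these data known. Array values are given, per role, for the members with the largest called change on knockdown, with PLX4032 and in the interaction, and from each wider list for up to 3 genes per contrast; ATP6V1A, ATP6V1H, LAMP2, MCOLN1, SQSTM1, FNIP1, the printed promoters other than those of ATP6V0D1 and GAA, RRAGC, TFE3, TFEC and the markers named were added after their values were seen. The alternatives tried were other probe set summaries, normalizations, filters, variance models, subsets of arrays, the replicate letter as a block, and a fold threshold of 1.5.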

Additional observations from a re-analysis of the deposited data

Results flagged for a closer look

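The change with PLX4032 differed between hairpins for 4 genes by a test of the difference itself (limma adjusted p below 0.05). The difference, knockdown minus scrambled cells, was -0.72 for WIPI1, -0.51 for CTSL, 0.43 for FNIP1 and 0.64 for FNIP2.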

How the results depend on the processing

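Over the 222 changes of the 37 genes in 6 contrasts, no called direction reversed under any of the 15 other fits. Averaging a gene's probe sets changed no call, but each of the 37 genes has only 1 probe set, so this was no check of their values. Calls lost and gained were 3 and 16 with quantile normalization repeated, 3 and 8 with arrays centred on their median, 1 and 20 with an intensity trend in the variance, 5 and 3 with only the groups compared, and 0 and 16 of 216 with the dimmest 40% of genes left out. With the replicate letter as a block (replicate block), 2 calls were lost and 4 gained, and rises with PLX4032 in scrambled cells numbered 22 in place of 23. Falls on knockdown in PLX4032 numbered 6 in the main fit and 10 with the trend. They numbered 9 with quantile normalization repeated, with arrays centred on their median or with the dimmest 40% left out. The cause was not tested, and the shares of all genes under these settings are not given here. Requiring a 1.5-fold change as well kept 34 of 102 calls, by construction. The rises and falls were then 2 and 3 (knockdown in DMSO), 4 and 1 (PLX4032 in scrambled cells), 8 and 0 (PLX4032 in knockdown cells), 1 and 3 (knockdown in PLX4032), 9 and 1 (both perturbations) and 1 and 1 (interaction). Leaving out 1 array, so that a lone array is assumed to vary like the other groups, lost 12 to 16 calls. Rises numbered 3 to 5 for knockdown in DMSO, 14 to 22 and 15 to 22 for PLX4032 in scrambled and knockdown cells, 3 to 5 for knockdown in PLX4032 and 1 to 2 for the interaction, with 1 to 2 falls there. With 2 arrays a group the median SE over all genes was 0.0939, and the smallest change of a member that passed was 0.23 (NPC1, knockdown in PLX4032).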
